A study of Mus musculus with 6 samples.

Results

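The region described here is a 420 kb segment of mouse chromosome 11, 111750001 to 112170000 in mm9, that is duplicated in both the Dup-L and the Dup-S mouse lines. It was chosen by position: it is the whole duplication of Dup-S, and it lies inside the larger duplication of Dup-L, which runs from 110960001 to 112520000 (1560 kb). The segment covers 42 of the 587 bins of 10 kb in the maps, and 23708 of the 171405 bin pairs counted here have at least 1 bin in it. Setting Dup-L against Dup-S asks what changes in the contacts of a duplicated stretch when the copied interval also takes in a domain boundary and more of the domains on either side.

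The data are capture Hi-C contact counts. The assay joins cut DNA ends of cross-linked chromatin, pulls down the ligation products of a chosen region with probes, and counts each product as a contact between the bins its ends fall in. The libraries were 1 of Dup-L limb buds and 1 of Dup-S limb buds, both at E12.5, a stage of mid gestation, with 1 WT library of the same tissue and stage giving the level without a duplication. These are 3 of the 6 libraries of the series. Neither the number of embryos pooled nor whether one or both chromosomes carried the duplication is given in the sources used here, and no other modified allele is named in the labels of these mice.

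The segment lies at the Sox9/Kcnj locus. Sox9 encodes a transcription factor that cartilage and testes need to form, and its enhancers are spread over a long stretch without other protein-coding genes. Kcnj2 and Kcnj16 encode potassium channels, and Map2k6 encodes a kinase. On the chromosome the genes follow each other in the order Map2k6, Kcnj16, Kcnj2 and Sox9. Chromatin here folds into domains, stretches whose bins contact one another more than they contact bins beyond a boundary. In the published description of these mice, Kcnj2 and Kcnj16 belong to the domain centromeric of the boundary and Sox9 to the domain telomeric of it, and Dup-L stops short of Kcnj2. A tandem duplication sets an added copy beside the original, head to tail, so that the end of one copy meets the start of the next. Reads from the copies map to the same place, so each contact count below is a sum over all copies, and the copies cannot be told apart. No gene position in mm9 was used.

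The stretches around the segment were named as follows. The boundary bin, 111380001 to 111390000, was the WT insulation minimum on the centromeric side of the segment. Between it and the segment lay inner Q, 111390001 to 111750000, and beyond the segment lay outer Q, 112170001 to 112520000. Across the boundary lay P, 110960001 to 111380000. P, the boundary bin, inner Q and outer Q are duplicated in Dup-L alone. The centromeric rest, 110200001 to 110960000, and the telomeric rest, 112520001 to 112650000, are the parts of the same domains that neither line duplicates. The next telomeric domain, 112650001 to 113030000, and the far flanks completed the map, which ran from 109010001 to 114880000.

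The maps held 8244295 contacts in Dup-L, 5280553 in Dup-S and 7051882 in WT, and between 93.5% and 96.1% of bin pairs held at least 1 contact. Pairs of bins fewer than 2 bins apart were left out, except where same-bin counts are named. Libraries were scaled on contacts with both bins outside the Dup-L duplication and on the same side of it, 2442096 in Dup-L and 1736357 in Dup-S, which gave a scale of 1.41. A fold is the scaled Dup-L count over the Dup-S count, and levels are given on the scale of Dup-S. Intervals of folds are exact (Clopper-Pearson) 95% intervals conditional on both counts, and those of shares are exact binomial ones. The interval of a ratio of folds is a normal approximation on the log scale. The limits of the share difference come from subtracting opposite limits of the shares and are not a 95% interval. All of these cover counting error only and leave out the error of the scale. They would be too narrow if duplicate reads were kept, which is not given. With 1 library per genotype no difference between genotypes can be tested, so no p-value is given, and differences may include variation between libraries. Outside the duplication, where neither line is altered, the folds of the scaling pairs lay between 0.967 and 1.06 across classes of separation.

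The counts of reads ligated within a single bin were used to check the labels. For each bin the ratio between libraries was divided by the median of that ratio over the bins outside the Dup-L duplication. These same-bin levels are thus not on the contact scale used for the folds. In the segment, the median bin had a same-bin level 1.76 times WT in Dup-L and 1.58 times WT in Dup-S. The Dup-L over Dup-S ratio in the segment was 1.11. In P the same-bin level was 1.81 times WT in Dup-L and 1.12 times in Dup-S, in inner Q 1.78 and 1.06 times, and in outer Q 1.73 and 0.999 times. In the telomeric rest the levels were 1.01 and 0.998 times WT. In Dup-L the levels were alike in the segment and the stretches around it, and in Dup-S the segment stood above those stretches, of which P was highest. The ratio of 1.11 in the segment is as small as the 1.12 of P in Dup-S over WT, so it is not read as a difference between the lines. The ends of both duplications had earlier been read from contact sums of these libraries relative to WT, so these levels describe the duplications and do not test them.

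The folds of the segment differed widely between its partners. Contacts with P, across the boundary on the reference, were 3.45-fold higher in Dup-L than in Dup-S (3.41 to 3.50). Contacts with inner and outer Q, inside the telomeric-side domain, were 1.45-fold higher in both cases. Contacts of the segment with itself were 0.919 of the Dup-S level (0.914 to 0.923), and those with the telomeric rest were 0.856 (0.846 to 0.867).

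**Figure D1:**
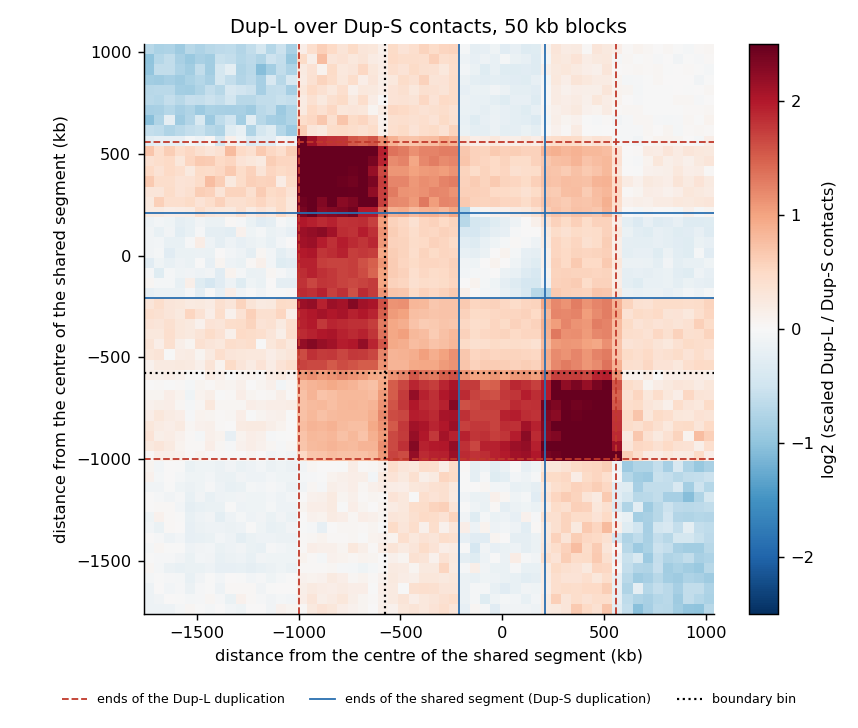
Map of the log2 ratio of Dup-L over Dup-S contacts in blocks of 50 kb, with both axes giving the distance in kb from the centre of the shared segment, red for higher and blue for lower in Dup-L, and colours ending at 2.5 on either side. Solid lines mark the ends of the segment, dashed lines the ends of the Dup-L duplication, and the dotted line the boundary bin. The band of the segment is red where it crosses P (3.45-fold) and close to white or pale blue where it crosses itself and the unduplicated rests.

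**Figure D2:**
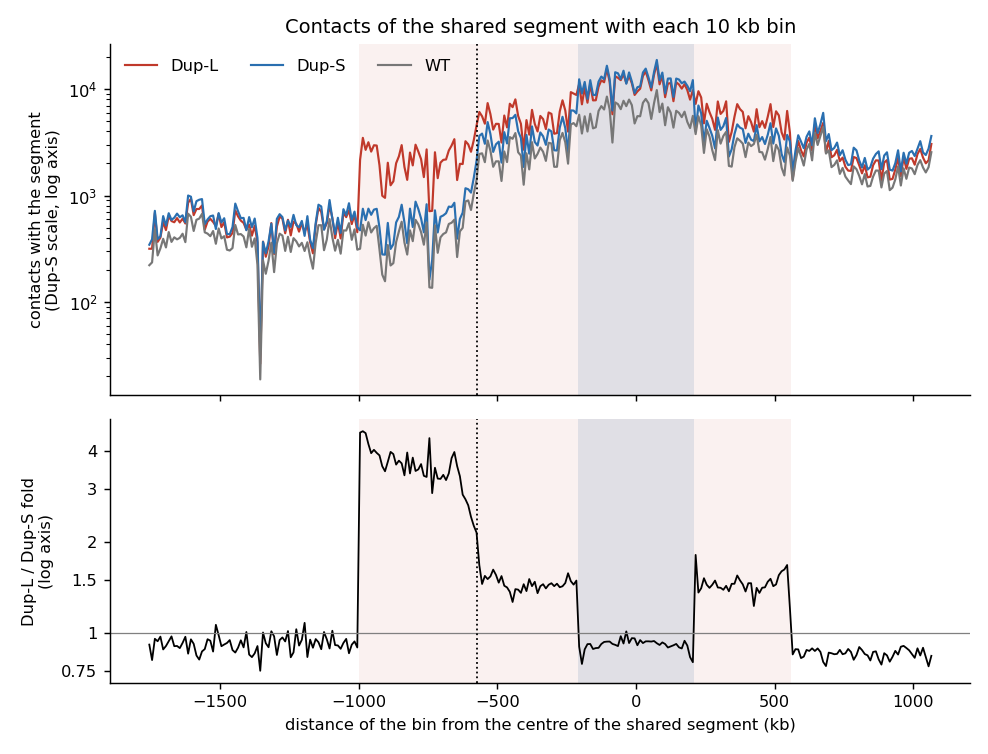
Contacts of the whole segment with each bin of 10 kb along the map (upper panel, log axis, Dup-S scale, lines for Dup-L, Dup-S and WT) and the Dup-L over Dup-S fold of the same contacts (lower panel, log axis), against distance from the centre of the segment in kb. Pale shading marks the Dup-L duplication, grey shading the segment and the dotted line the boundary bin. The fold steps up at both ends of the Dup-L duplication. It lies below 1 in 41 of the 42 bins of the segment and in all bins of the telomeric rest and the next telomeric domain. Of all 587 bins of the map, 244 had a fold above 1, and the median was 0.971.

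Within the segment, the pairs held 324494 contacts in Dup-L and 251186 in Dup-S, against 192013 in WT. After scaling, Dup-L stood at 1.80 times WT and Dup-S at 1.95 times WT. The difference between the lines grew with separation. At 20 to 60 kb the levels were 580 contacts per bin pair in Dup-L and 569 in Dup-S, against 335 in WT, a fold of 1.02 (1.01 to 1.03). At 170 to 210 kb they were 166 in Dup-L and 199 in Dup-S, against 89.3 in WT, a fold of 0.834 (0.820 to 0.849). At 320 to 360 kb they were 120 in Dup-L and 183 in Dup-S, against 57.1 in WT, a fold of 0.656 (0.635 to 0.678). The fold was lower in each of the 8 classes of separation than in the class before it.

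In the last class, 370 to 410 kb, which joins the opposite ends of the segment, Dup-L had 130 contacts per pair and Dup-S 283, against 60.2 in WT. The fold there was 0.458 (0.437 to 0.481), and the Dup-S level stood above its own level at every separation from 120 to 360 kb. The single pair of the first and the last bin, 410 kb apart on the reference, held 242 contacts in Dup-L and 665 in Dup-S, against 122 in WT before scaling. These ends adjoin at the junction between the copies of Dup-S, whereas in Dup-L the junction between the copies joins the ends of the larger interval.

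The junctions were compared by the contacts between the first and the last 100 kb of each duplication. For the ends of the segment, Dup-L had 17379 contacts and Dup-S had 19305, against 9114 in WT, a Dup-L over Dup-S fold of 0.640 (0.627 to 0.653). With ends of 50 kb the fold was 0.510 (0.491 to 0.530). For the ends of the Dup-L duplication, Dup-L had 12373 contacts and Dup-S had 806, against 1211 in WT, a fold of 10.9 (10.2 to 11.7), and of 5.31 in the authors' balanced maps, in which all bins have equal sums. Dup-L was 2.03 times WT and Dup-S 3.17 times WT at the ends of the segment, whereas at the ends of the Dup-L duplication they were 10.9 and 0.995 times WT.

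**Figure D3:**
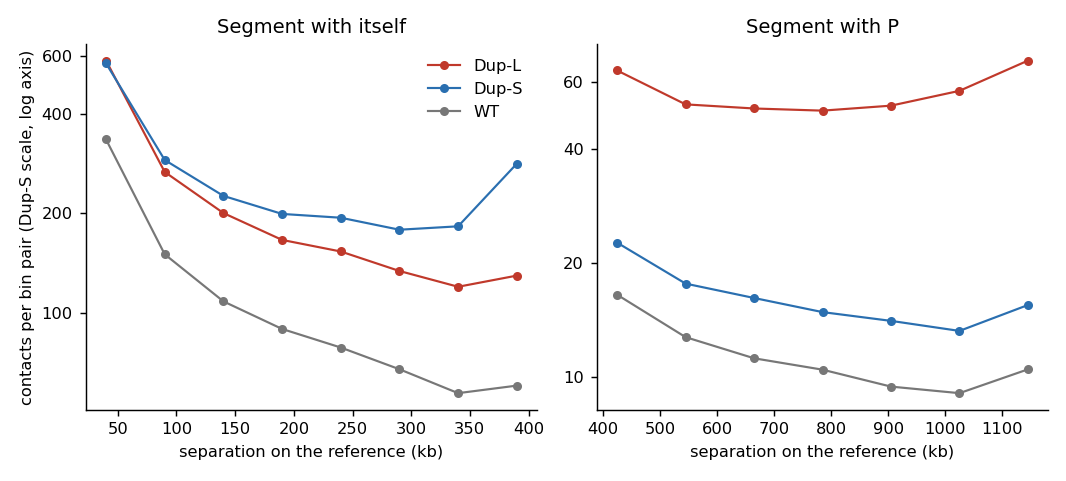
Contacts per bin pair on the Dup-S scale (log axis) against separation on the reference in kb, for pairs within the segment (left) and pairs of the segment with P (right), 1 point per class of separation and 1 line each for Dup-L, Dup-S and WT. Within the segment, Dup-S turns up to 283 contacts per pair at the largest separation while Dup-L stays at 130; with P, Dup-L lies above Dup-S at all separations and is lowest, at 50.4, in the middle.

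Contacts with P gave the largest fold of the segment with any of these stretches. In Dup-L, they may run across the boundary within a copy. They may also run across the junction between copies, where no boundary bin lies between. With P, the segment had 131952 contacts in Dup-L and 27177 in Dup-S, against 28295 in WT. After scaling, Dup-L stood at 4.95 times WT and Dup-S at 1.44 times WT. The contacts with the boundary bin itself, 6391 in Dup-L and 2117 in Dup-S, differed by 2.15-fold (2.04 to 2.26). The P fold was 2.38 times the inner Q fold (2.34 to 2.41), a ratio that needs no scale between libraries. P and inner Q had Dup-L same-bin levels of 1.81 and 1.78 times WT.

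Along P, the fold was highest at its far end and lowest beside the boundary. The 100 kb from 110960001 to 111060000 had 33555 contacts with the segment in Dup-L and 5765 in Dup-S, a fold of 4.14 (4.02 to 4.26). The stretches after it had folds of 3.64, 3.40 and 3.22, and the last 20 kb, from 111360001 to 111380000, had 8282 contacts in Dup-L and 2530 in Dup-S, a fold of 2.33 (2.23 to 2.43).

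The dependence on separation had a different shape in the lines. Dup-L had 64.3 contacts per pair at 370 to 480 kb, 50.4 at 730 to 840 kb and 68.2 at 1090 to 1200 kb. Dup-S had 22.6, 14.8 and 15.5 at the same separations, against 16.5, 10.5 and 10.5 in WT. The fold was 2.84 (2.68 to 3.01) in the nearest class and 4.40 (4.14 to 4.68) in the farthest. Measured across the head-to-tail junction of Dup-L, the farthest class is 360 to 470 kb apart and the nearest 1080 to 1190 kb.

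Every bin of the segment took part. All 42 bins had more contacts with P in Dup-L, with folds of 2.91 to 4.08 and a median of 3.39, and every interval lay above 1. The median fold was 3.27 in the centromeric 14 bins of the segment, 3.35 in the middle 14 and 3.74 in the telomeric 14. The highest bins were 112070001 to 112080000, with 3466 contacts in Dup-L and 604 in Dup-S (4.08-fold, 3.74 to 4.46), and its neighbour from 112080001 (4.04-fold), followed by 111970001 (4.03-fold). The lowest were 111870001, with 1321 contacts in Dup-L and 323 in Dup-S (2.91-fold, 2.57 to 3.29), 111830001 (3.05-fold) and 111880001 (3.10-fold). The intervals of the highest and lowest bin did not overlap, but both bins were picked from the 42 by these same folds. Their separation is thus not a test that bins differ. The bin from 111870001 also had the fewest contacts with P of the 42 in both libraries.

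**Figure D4:**
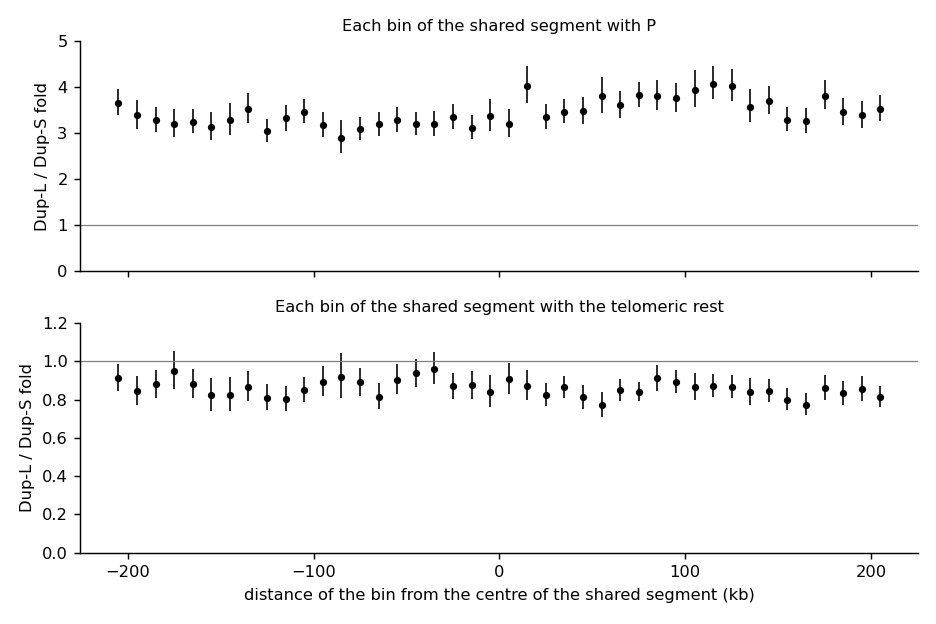
Dup-L over Dup-S fold of each of the 42 bins of the segment, with its exact 95% interval from counting alone, against the bin's distance from the centre of the segment in kb, for contacts with P (upper panel) and with the telomeric rest (lower panel). All points lie above the line at 1 with P and below it with the telomeric rest.

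Inside its own domain, the segment met inner and outer Q at nearly the same fold. With inner Q it had 283146 contacts in Dup-L and 138671 in Dup-S, against 146157 in WT, a fold of 1.45 (1.44 to 1.46). With outer Q it had 278101 in Dup-L and 136089 in Dup-S, against 157179 in WT, also a fold of 1.45 (1.44 to 1.46). The inner Q fold was 0.999 times the outer Q fold (0.990 to 1.01). The folds differed little with separation, between 1.44 and 1.55 for inner Q and between 1.43 and 1.53 for outer Q. In the balanced maps the authors deposited, where Knight-Ruiz (KR) correction gives all bins equal sums and so takes out the copy level of single bins, the folds were 0.991 for inner Q and 1.00 for outer Q. In the same KR maps the fold with P was 2.32, and that of the segment with itself 0.850. So the higher contacts with inner and outer Q were not seen in the KR values, and those with P were. The KR folds of P, inner Q and outer Q with themselves were 0.897, 0.890 and 0.875. Because each bin's sum is fixed in these maps, a higher fold with P lowers the folds with other partners. The cause of the KR folds was not tested.

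For comparison, stretches duplicated in Dup-L alone were also paired with each other. Contacts between inner and outer Q were 2.28-fold higher in Dup-L (2.25 to 2.30), those between P and inner Q 3.46-fold (3.42 to 3.51), with an interval that overlaps that of the segment with P, and those between P and outer Q 6.17-fold (6.06 to 6.28). The contacts of each stretch with itself were 1.78-fold higher in P, 1.77-fold in inner Q and 1.69-fold in outer Q. The fold of the segment with itself was 0.633 times its fold with inner Q (0.627 to 0.638).

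Beyond the telomeric end of the Dup-L duplication, on the side where Sox9 lies, the segment had fewer contacts in Dup-L. With the telomeric rest it had 57323 contacts in Dup-L and 47589 in Dup-S, against 53483 in WT, a fold of 0.856. Relative to WT these contacts were 1.14-fold in Dup-L and 1.33-fold in Dup-S. With the next telomeric domain it had 110503 in Dup-L and 91895 in Dup-S, a fold of 0.855 (0.848 to 0.863). Relative to WT these were 1.24-fold in Dup-L and 1.45-fold in Dup-S. All 42 bins had folds below 1 with the telomeric rest, between 0.770 and 0.962, and 38 of their intervals lay below 1. With the centromeric rest, 38 of the 42 bins had folds below 1, and 24 intervals lay below 1.

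The lowest bins with the telomeric rest were 112010001 to 112020000, with 1132 contacts in Dup-L and 1045 in Dup-S (0.770, 0.707 to 0.839), 112120001 (0.774) and 112110001 (0.800). The highest were 111920001 (0.962, 0.884 to 1.05), 111780001 (0.950) and 111910001 (0.937), whose intervals all reached 1. The fold of the whole segment changed with distance from the duplication: it was 0.872 from 112520001 to 112620000, 0.820 in the last 30 kb of the telomeric rest, between 0.846 and 0.866 across the next telomeric domain, and 0.870, 0.927 and 0.966 in the 3 stretches of 100 kb that follow.

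On the other side, contacts with the centromeric rest were 57401 in Dup-L and 44397 in Dup-S, a fold of 0.919 (0.908 to 0.931), and those with the far centromeric flank gave 0.995 (0.978 to 1.01). Contacts within the centromeric rest, which neither line duplicates, had a fold of 0.932. The lines thus differed slightly on this side also without the segment. Relative to WT, contacts within the centromeric rest were 1.00-fold (0.995 to 1.004) in Dup-L and 1.07-fold (1.067 to 1.078) in Dup-S. Contacts within the telomeric rest had a fold of 0.979 and those between the telomeric rest and the next telomeric domain 1.01. Whether these small shifts between libraries are part of the segment's folds was not tested. The fold with the telomeric rest was 0.932 times that with the centromeric rest (0.916 to 0.948) and 0.861 times that with the far centromeric flank (0.843 to 0.879), comparisons that need no scale.

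Because every scale carries an assumption, the segment's contacts were also divided by their own total. Of the 1366409 contacts of the segment in Dup-L and 825904 in Dup-S, 9.66% (9.61 to 9.71) in Dup-L and 3.29% (3.25 to 3.33) in Dup-S went to P, against 3.51% in WT. On the reference, P, the centromeric rest and the far centromeric flank all lie beyond the boundary. Contacts with these together took 16.1% in Dup-L and 11.3% in Dup-S, against 11.6% in WT. The difference between the lines was 4.78 percentage points (4.65 to 4.91). Of these partners, only P took a larger share in Dup-L. The far centromeric flank took 2.24% in Dup-L and 2.65% in Dup-S. Contacts with P that meet across the junction of a head-to-tail Dup-L have no boundary bin between them, and they cannot be told apart from the rest.

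The segment's contacts with itself took 23.7% in Dup-L and 30.4% in Dup-S, against 23.8% in WT. Contacts beyond the telomeric end of the Dup-L duplication took 18.6% in Dup-L (18.5 to 18.7) and 24.7% in Dup-S (24.7 to 24.8), against 26.7% in WT. The shares with inner Q were 20.7% in Dup-L and 16.8% in Dup-S, against 18.1% in WT. The centromeric rest, which is not duplicated, took 4.20% in Dup-L and 5.38% in Dup-S, against 5.45% in WT. Shares add up to the whole, so a larger share with one partner lowers the others.

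**Figure D5:**
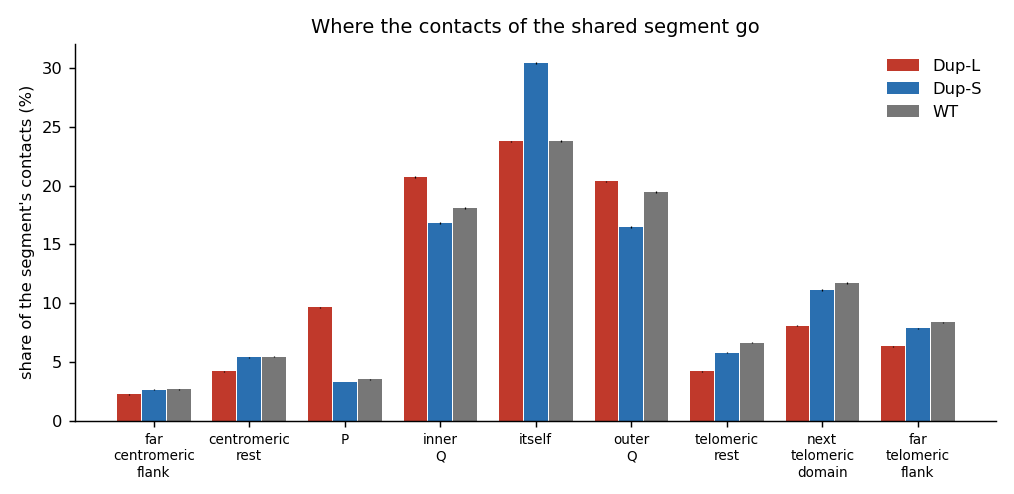
Share of the segment's contacts, in percent, that went to each stretch of the map from the far centromeric flank (left) to the far telomeric flank (right), as bars for Dup-L, Dup-S and WT with exact 95% intervals from counting alone. The bars for P stand at 9.66% in Dup-L and 3.29% in Dup-S, and those for the segment itself at 23.7% and 30.4%.

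The whole map was then cut into blocks of 100 kb by 100 kb with at least 50 contacts in both libraries, counted as higher or lower past a fold of 1.5. Of all 1711 blocks, 7.01% were higher and 8.94% were lower in Dup-L. Of the 226 blocks with a side inside the segment, 21 were higher (9.29%) and 0 were lower, with a median fold of 0.976 beside 1.01 for all blocks. The share of higher blocks was thus close to that of the whole map, and the position of the blocks is what the data show. Of the 21, 20 had their other side reaching into P, with folds of 1.69 to 4.20. That side lay wholly in P in 12 and also held bins of a neighbouring stretch in 8. Where it ran from 111350001 to 111450000, with folds of 1.69 to 1.74, it lay mostly in inner Q. The only higher block not reaching into P paired 111750001 to 111850000 with 112250001 to 112350000 in outer Q (1.52, 1.48 to 1.57). Blocks with inner Q had folds of 1.37 to 1.499 and those with outer Q 1.40 to 1.52, close to the threshold. The 466 blocks outside the duplication and on 1 side of it had folds between 0.770 and 1.23.

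The segment's block with the largest fold paired 110950001 to 111050000 with 111950001 to 112050000, with 8123 contacts in Dup-L and 1375 in Dup-S (4.20, 3.97 to 4.45). The next were the pairs of 110950001 with 112050001 (4.17) and of 111050001 with 112050001 (4.06). The smallest fold was within the segment, between 111750001 to 111850000 and 112050001 to 112150000, with 18129 contacts in Dup-L and 18109 in Dup-S (0.712, 0.697 to 0.727). The next smallest paired 112050001 to 112150000 with 112950001 to 113050000 (0.799). In the whole map, the 5 largest folds, 6.36 to 7.89, all paired blocks that start within 100 kb of the far end of P with blocks in outer Q or reaching just past it. The 5 smallest, 0.483 to 0.524, all paired the centromeric rest with stretches beyond 112950000.

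The insulation score, whose minimum in WT defined the boundary bin, was compared between the lines. It is the mean count in a square of 500 kb spanning each bin, on a log2 scale relative to the mean of all bins, so a low score marks a bin that few contacts cross. At the boundary bin the score was -0.09 in Dup-L and -1.43 in Dup-S, against -1.46 in WT, and in Dup-L the minimum lay in the neighbouring bin from 111370001. With a square of 200 kb it was -0.36 in Dup-L and -1.78 in Dup-S, against -1.70 in WT. In the KR maps with a square of 500 kb it was -0.62 in Dup-L and -1.42 in Dup-S, against -1.40 in WT. There the minimum lay in the boundary bin in all 3 libraries. In Dup-L, counts at this bin add contacts within a copy to contacts that cross the junction between copies, and these cannot be told apart.

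Inside the segment the median score was 1.10 in Dup-L and 0.95 in Dup-S, against 0.55 in WT. With a square of 200 kb the median was 0.93 in Dup-L and 1.05 in Dup-S, against 0.38 in WT. With that square Dup-L was the higher at the segment's centromeric end (0.75 in Dup-L and 0.41 in Dup-S) and telomeric end (0.99 in Dup-L and 0.64 in Dup-S), and Dup-S was the higher at its centre (1.02 in Dup-L and 1.49 in Dup-S). In the KR maps the median with 500 kb was 0.29 in Dup-L and 0.30 in Dup-S. The order of the lines inside the segment thus differed with the square, the place and the values used.

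The authors deposited maps of the difference of each line from WT. These maps share the WT library, so they are given side by side. In the authors' deposited table for Dup-L minus WT, 100% of the 1764 pairs of the segment with P were above 0, and in the authors' deposited table for Dup-S minus WT 78.7% were. For the telomeric rest, the authors' deposited table had 74.2% of 546 pairs above 0 for Dup-L minus WT and 90.8% for Dup-S minus WT. Most pairs with the other unduplicated stretches were also above 0. For Dup-L minus WT and Dup-S minus WT, these were 75.9% and 67.6% with the far centromeric flank. They were 79.4% and 80.5% with the centromeric rest, 84.3% and 93.7% with the next telomeric domain, and 74.6% and 70.5% with the far telomeric flank. Within the segment, all 820 pairs were above 0 in the authors' deposited table of each line.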

How the data were processed

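Bowtie2 2.2.6 and the mm9 build are named in the submitters' processing notes. The sources used here do not give the read-pair filters, the handling of duplicates or the balancing tool. As deposited, the files hold raw contact counts per pair of 10 kb bins (mapping quality 30, per the file names) and, as signal, the same maps after KR balancing. The authors also deposited maps of signed differences from WT. Dup-S positions are offsets from the map's start. Each deposited difference map equalled a weighted raw line map minus a weighted raw WT map, with residuals of at most 1e-12 over 172578 bin pairs, which fixed that placement.

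Counts were summed over regions, scaled and compared in Python 3.11.15 (numpy 2.4.6, scipy 1.17.1, matplotlib 3.10.9), without a count model. Domains ended at WT insulation minima whose prominence reached 0.3 log2. The minimum at 112650001, which ends the telomeric rest, barely passed, with a prominence of 0.306. In the WT KR map with a square of 500 kb, the minimum nearest the telomeric end of Dup-L was at 113030001 instead. With a square of 200 kb, WT had a minimum at 112650001 in raw counts and at 112640001 in KR values. With the domain taken to the next minimum, the fold with the telomeric rest was 0.8555. Named bins were the 3 highest and 3 lowest of the segment with P and with the telomeric rest. Named blocks were the 5 with the largest and the 5 with the smallest fold. The grid of blocks starts at the segment, so its last 20 kb fall in no block inside it. The procedure was tested on simulated data. The segment, regions and alternatives were chosen with earlier results of these data known. The other 3 libraries of the series were not used, except that, of the WT minima, the one closest to the bin emptied in deltaBor (111390001 to 111400000, its neighbour) was taken as the boundary bin.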

Additional observations from a re-analysis of the deposited data

How the results depend on the processing

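Across the alternatives, contacts of the segment with itself and with both rests stayed below 1, and those with P stayed above 1. Values are given for itself, P, inner Q, outer Q, the centromeric rest and the telomeric rest, in this order. KR-normalised values gave 0.850, 2.32, 0.991, 1.00, 0.932 and 0.871, so the fold with inner Q turned below 1 and that with outer Q came to 1. Scaling to the library total gave 0.788, 2.96, 1.245, 1.246, 0.788 and 0.734. The centromeric outside pairs alone gave 0.956, 3.59, 1.51, 1.51, 0.956 and 0.891, and the telomeric ones 0.891, 3.35, 1.41, 1.41, 0.892 and 0.831. Equal weight for each distance gave 0.940, 3.53, 1.49, 1.49, 0.940 and 0.876. Chosen after seeing the data, the authors' factors gave 0.946, 3.555, 1.495, 1.496, 0.947 and 0.882, and division by the segment's same-bin ratio gave 0.824, 3.10, 1.30, 1.30, 0.825 and 0.768. That ratio is relative to same-bin counts outside the duplication and not to the contact scale of the folds, so the division mixes scales. In the segment's first bin, same-bin levels were 1.80 times WT in Dup-L and 1.66 times in Dup-S on the former. On the contact scale they were 1.73 and 1.94 times WT, the reverse order, and its last bin reversed likewise. This alternative therefore cannot show whether those folds stay below 1. Leaving out pairs under 10 bins apart moved the fold of the segment with itself to 0.821. It moved the difference in the share beyond the boundary on the reference to 5.51 points, against 5.29 points in KR values. Leaving out 10 bins of low coverage moved none of these folds beyond its counting interval. With the looser of the call thresholds tried, 45 blocks were higher and 2 lower, and 1 block was lower in KR values and 1 with the library total. The fold at the ends of the Dup-L duplication was 5.31 in KR values. The cause of these shifts was not tested, but the scale alone sets those between scalings. Of 85 alternative values, 29 stayed within the counting interval or, for counts, within 1.5 times the main one. A further 55 moved beyond this, and 1 reversed, the KR fold with inner Q. Leaving out pairs under 10 bins apart removes no pair of the segment with P or with either rest. For those folds it changes the scale alone. No paired analysis was possible because each genotype has 1 library and the labels give no replicate numbers. With 1 library per genotype, differences between libraries and between genotypes cannot be told apart.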

Other observations

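Just outside the telomeric end of the segment, the bin 112170001 to 112180000 had a low contact sum in Dup-S. It held 40473 contacts in Dup-L and 12622 in Dup-S, against 23512 in WT. Its ratio to WT, over the median ratio of bins outside the Dup-L duplication, was 1.79 in Dup-L and 0.778 in Dup-S. Its same-bin counts were 2763 in Dup-L and 1282 in Dup-S, against 1752 in WT before scaling. The same-bin level in Dup-S was 0.936 times WT over the median ratio of outside bins and 1.09 times WT on the scale of the contacts. On the latter scale the sum was 0.802, so the same-bin counts do not show the low level of the sum. The bin on the inner side of the same end stood at 1.63 times WT in Dup-L and 1.52 times in Dup-S. The bin just outside the centromeric end of the segment stood at 1.78 times WT in Dup-L and 1.08 times in Dup-S. The maps do not show the sequence at the junction, and the source of the low sum was not tested.

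The bins inside the ends of the Dup-L duplication were also unequal: 110960001 to 110970000 stood at 1.93 times WT in Dup-L and 1.11 times in Dup-S, and 112510001 to 112520000 at 1.37 and 1.07 times.

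The junction ends can be set beside neighbouring stretches of WT. Adjacent stretches of 50 kb within the segment had a median of 6349 contacts in WT on the Dup-S scale. The first and last 50 kb of the segment, which adjoin across the junction of Dup-S, held 0.496 of this level in Dup-L and 0.971 in Dup-S. The first and last 50 kb of the Dup-L duplication held 0.554 of the WT level of adjacent stretches within it in Dup-L, and 0.0433 in Dup-S.

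Pairs that span the whole Dup-L duplication were lower in Dup-L. The centromeric rest met the telomeric rest with 7283 contacts in Dup-L and 8115 in Dup-S, against 12510 in WT, a fold of 0.638 (0.618 to 0.659) between the lines. It met the next telomeric domain at a fold of 0.603 (0.592 to 0.614). Relative to WT, these pairs were at 0.619 and 0.625 in Dup-L and at 0.969 and 1.04 in Dup-S.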
